A study of Physcomitrium patens with 6 samples.

Results

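In *Ppddm1* protonema, 116 genes that had fallen to 50% or less of their wild type level stood side by side along the chromosomes of the moss *Physcomitrium patens*. They were found by placing the 19584 chromosomal genes with at least 10 counts over the 6 libraries in order, by the chromosome and the rising number that their Pp3c identifiers carry. A gene was taken as low when its wild type mean was at least 2 CPM (the count divided by the library total and multiplied by 1000000), when no *Ppddm1* library reached the lowest wild type library, and when its *Ppddm1* mean was at most 50% of its wild type mean. This held for 520 genes, which is 2.66% of the ordered genes and 3.08% of the 16887 ordered genes that reached 2 CPM in wild type. Of these 520 low genes, 116 (22.3%) had a low gene directly next to them in the order and are the genes described here, while the other 404 stood alone. The side-by-side genes formed 51 runs, of which 40 held 2 genes, 8 held 3 genes and 3 held 4 genes. The genes were chosen by their CPM in all 6 libraries, so their lower level in *Ppddm1* is a description with no test. By the same choice all 116 had passed the count minimum and the wild type minimum.

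The plants compared were wild type, of the strain labelled Grandsen, and *Ppddm1* in the same strain, both grown for 7 days on BCDAT medium as protonema, the young filamentous tissue of the moss. *Ppddm1* goes back to 1 plant in which the coding region of PpDDM1 had been exchanged for a Zeocin resistance cassette by homologous recombination, so it stands for a single line. Poly(A) RNA was sequenced in 3 libraries of each genotype, with replicates 1 and 2 in batch 1 and replicate 3 in batch 2. The methods call the 3 libraries repetitions of the RNA extraction and do not say that they came from separate cultures, so the spread between them may be technical.

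DDM1 is a chromatin remodeler of the SNF2 family. In *Arabidopsis* it uses ATP to move nucleosomes and gives DNA methyltransferases access to heterochromatin, and *ddm1* mutants of flowering plants lose DNA methylation and transcribe transposable elements (TEs) that are otherwise silent. Genes that lie next to each other on a plant chromosome can be tandem copies of one family, can share a promoter region in opposite orientation, or can have nothing in common but their position. The files used here pair no Pp3c identifier with a gene name, and the reference table at hand holds none of these identifiers. The members are therefore given by identifier, with no function, no coordinates and no sequence, and the tissue was not checked against marker genes.

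The counts summed to between 2784259 and 6079718 in the wild type libraries and to between 3767473 and 10536543 in the *Ppddm1* libraries. The library sizes that the study lists are more even than these totals. For *Ppddm1* replicate 3 the total of 10536543 is above the size listed. The reason was not tested. PpDDM1 itself (Pp3c17_19520) had 15.1, 18.3 and 26.5 CPM in wild type and 1.06, 0.974 and 1.04 CPM in *Ppddm1*, which edgeR fitted as -4.31 on the log2 scale (SE 0.32, adjusted p = 1.9e-05 by its quasi-likelihood F test). It was low but had no low neighbor. Across all genes and TEs with at least 10 counts, edgeR called 483 genes at least 2-fold lower in *Ppddm1*, which is 2.47% of the ordered genes, and 104 of the 116 side-by-side genes were among them. The libraries that chose the members also gave these calls, so nothing is read from that count. Of the 12 members without a call, 10 had wild type means between 2.17 and 6.15 CPM. The other two were Pp3c1_41520, whose wild type libraries ranged widely, and Pp3c16_23630. A share of 10.9% of the ordered genes had all *Ppddm1* libraries below all wild type libraries, whatever the size of the difference.

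Summed over the 116 genes, wild type replicates 1 to 3 had 6768, 7838 and 7674 CPM, and the *Ppddm1* replicates had 2900, 2177 and 2556 CPM. With means of 7427 ± 576 CPM (SD, n = 3) against 2544 ± 361 CPM (SD, n = 3), the genes together kept 34.3% of their wild type level. They took up between 0.677% and 0.784% of all counts in wild type and between 0.218% and 0.290% in *Ppddm1*. In RNA from whole tissue, fewer cells of a type and less RNA per cell cannot be told apart.

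A single member kept a median of 30.1% of its wild type level (quartiles 19.8% and 40.6%, range 4.26% to 48.7%). The 404 low genes that stood alone kept a median of 37.3% (quartiles 28.0% and 43.8%), and the 16887 genes at 2 CPM or more in wild type kept 103%. The corresponding median log2 ratios of *Ppddm1* to wild type were -1.73, -1.42 and 0.05. Fewer than 25% of the wild type level remained for 48 of the 116 side-by-side genes (41.4%) and for 79 of the 404 genes that stood alone (19.6%). Within the side-by-side genes, the 36 that belonged to runs of 3 or 4 kept a median of 24.5% and the 80 in runs of 2 a median of 31.3%. The same libraries chose both kinds of low gene, so these medians are set side by side with no test.

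Wild type means of the members reached from 2.17 to 624 CPM, with a median of 22.9 CPM. They were below 5 CPM for 22 members, between 5 and 50 CPM for 53 and higher for 41. CPM is not corrected for gene length, so a level is compared here only with the same gene in another library. No member was silent in *Ppddm1*. Only 4 had a *Ppddm1* library with no count (Pp3c6_28760, Pp3c17_10109, Pp3c19_13700 and Pp3c21_7640), and none lacked counts in all 3. Summed over the *Ppddm1* libraries, the counts behind a member had a median of 109 and a minimum of 8. The lowest wild type library exceeded the highest *Ppddm1* library by a median factor of 1.96 and by at least 2-fold for 55 members, and the smallest such factor was 1.02.

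**Figure D1:**
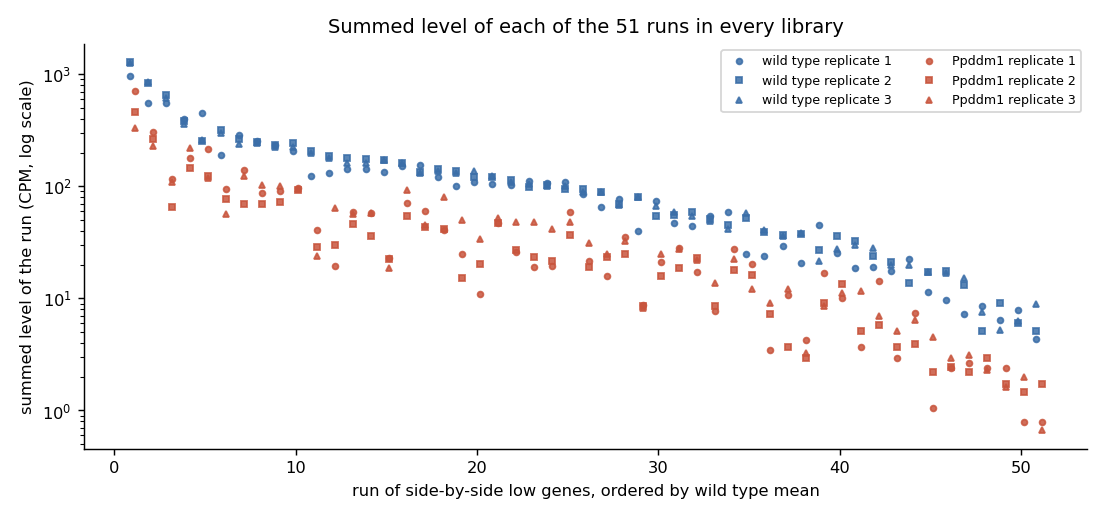
Summed level of each of the 51 runs, in CPM on a log scale, for the 3 wild type libraries (blue) and the 3 *Ppddm1* libraries (red), with runs ordered along the x axis by their wild type mean. The genotypes do not overlap in any run, as the rule requires, and the distance between them is widest for runs such as Pp3c21_7640 to Pp3c21_7690, which kept 10.8% of its wild type level.

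The lowest remaining share of any run was found on chromosome 21, where Pp3c21_7640, Pp3c21_7660, Pp3c21_7670 and Pp3c21_7690 followed each other in the order. Pp3c21_7640 had 8.62, 17.6 and 16.6 CPM in wild type and 1.06, 0 and 0.759 CPM in *Ppddm1*. Its neighbor Pp3c21_7660 had 2.15, 5.15 and 7.24 CPM in wild type and 0.265, 0.731 and 0.759 CPM in *Ppddm1*. For Pp3c21_7670 the values were 3.95, 4.45 and 3.95 CPM against 0.531, 0.731 and 0.285 CPM. All 3 kept between 4.26% and 12.5% of their wild type level, while Pp3c21_7690 kept 19.7%. Replicate 1 was the lowest of the wild type libraries for every gene of the run except Pp3c21_7670, where it was equal to replicate 3 at this rounding. The genes on each side, Pp3c21_7570 and Pp3c21_7720, had 93.6% and 129% of their wild type means, and their genotypes overlapped in both cases.

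A second run of 4, on chromosome 2, contained Pp3c2_32320, Pp3c2_32330, Pp3c2_32400 and Pp3c2_32410, and summed to 159 ± 21.4 CPM for wild type against 21.4 ± 2.39 CPM for *Ppddm1* (mean ± SD, n = 3 each). Pp3c2_32410 had 85.8, 115 and 118 CPM in wild type and 11.9, 10.7 and 10.8 CPM in *Ppddm1*. Pp3c2_32400 had 37.4, 35.1 and 32.9 CPM in wild type and 8.49, 7.80 and 5.22 CPM in *Ppddm1*. The *Ppddm1* libraries were close to each other in both genes and far below the lowest wild type library. The less counted genes Pp3c2_32320 and Pp3c2_32330 kept 19.8% and 11.6%. Directly outside this run the level was not lower: Pp3c2_32310 had 25.1, 25.0 and 21.1 CPM in wild type and 26.0, 29.2 and 30.2 CPM in *Ppddm1*. On the other side Pp3c2_32420 had 45.6, 51.5 and 50.7 CPM against 51.5, 50.9 and 47.8 CPM, with the genotypes overlapping.

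On chromosome 24, the run Pp3c24_13090, Pp3c24_13110 and Pp3c24_13120 kept 15.9% of its summed wild type level. Pp3c24_13110 fell from 278, 339 and 301 CPM in wild type to 33.4, 25.6 and 44.9 CPM in *Ppddm1*, a fitted log2 fold change of -3.14. Pp3c24_13090 had 124, 132 and 134 CPM in wild type and 25.2, 15.1 and 20.4 CPM in *Ppddm1*. Pp3c24_13120 had 148, 178 and 181 CPM and 56.5, 24.1 and 43.1 CPM. *Ppddm1* replicate 2 was the lowest library for all 3 genes, and the genotypes were separated by more than the whole spread of either. The gene next to the run, Pp3c24_13160, varied more between the libraries of a genotype than between genotypes, at 533, 233 and 238 CPM in wild type and 484, 279 and 315 CPM in *Ppddm1*.

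Chromosome 13 held the run Pp3c13_2400, Pp3c13_2420 and Pp3c13_2427, whose genes differed in how much remained. Pp3c13_2400 had 95.2, 103 and 119 CPM in wild type and 5.84, 11.7 and 25.9 CPM in *Ppddm1*, which is 13.7% of wild type. Pp3c13_2420 kept 46.2%, with 11.1, 11.9 and 12.0 CPM in wild type and 3.45, 6.58 and 6.17 CPM in *Ppddm1*. Pp3c13_2427 kept 36.7%. In *Ppddm1* replicate 1 was the lowest library for all 3 genes, and for Pp3c13_2400 replicate 3 was the highest. Beyond the end of this run Pp3c13_2440 was also lower without meeting the rule, with 54.2, 55.2 and 47.0 CPM in wild type and 25.0, 30.4 and 34.8 CPM in *Ppddm1*, or 57.7% of wild type. On the other side, Pp3c13_2370 kept 81.2%.

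Chromosome 11 had a pair of runs of 3. In the run of Pp3c11_4150, Pp3c11_4200 and Pp3c11_4360 the identifiers are further apart, and Pp3c11_4360 had 91.6, 77.2 and 81.7 CPM in wild type and 14.1, 16.3 and 31.8 CPM in *Ppddm1*. *Ppddm1* replicate 3 was the highest *Ppddm1* library for all 3 genes, and the run kept 19.5% in batch 1 and 41.4% in batch 2. The other run, Pp3c11_25861, Pp3c11_25868 and Pp3c11_25880, kept 32.7% in batch 1 and 34.6% in batch 2. Pp3c11_25880 had 129, 161 and 150.2 CPM in wild type and 55.7, 43.8 and 51.2 CPM in *Ppddm1*. Pp3c11_25861 had 10.4, 11.5 and 9.87 CPM and 1.06, 1.22 and 3.23 CPM, which is 17.3% of wild type. The gene before this run, Pp3c11_25840, went the same way with less difference, from 83.0, 103 and 92.9 CPM to 64.0, 65.5 and 51.3 CPM.

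The remaining runs of 3 outside chromosome 16 were on chromosomes 21, 26 and 27. Pp3c21_20650 had 532, 674 and 665 CPM in wild type and 380.4, 237 and 166 CPM in *Ppddm1*, and its neighbor Pp3c21_20660 had 405, 569 and 559 CPM and 321, 206 and 152 CPM. In both genes wild type replicate 1 was the lowest wild type library and *Ppddm1* replicate 1 the highest *Ppddm1* library, so the genotypes lay nearest to each other in replicate 1. The whole run with Pp3c21_20640 kept 52.4% in batch 1 and 26.4% in batch 2. Pp3c26_12740 and Pp3c26_12800 kept 20.9% and 23.1%, and Pp3c26_12810 beside them kept 38.4%, from 121, 108 and 107 CPM in wild type to 52.0, 39.5 and 37.4 CPM in *Ppddm1*. On chromosome 27, Pp3c27_6870, Pp3c27_6880 and Pp3c27_6910 kept 44.0%, 29.1% and 42.0%, and the sum of that run was 106, 122 and 125 CPM in wild type and 47.5, 47.5 and 51.8 CPM in *Ppddm1*.

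If 1 gene that is not low is allowed between low genes, the longest stretch was on chromosome 16, from Pp3c16_13060 to Pp3c16_13280. There 9 of 11 genes consecutive in the order were low, in a pair, a run of 3 and a run of 4. The pair came first. Pp3c16_13060 had 42.7, 53.4 and 56.3 CPM in wild type and 26.3, 17.8 and 26.6 CPM in *Ppddm1*, and Pp3c16_13070 kept 35.9%. Next came Pp3c16_13081, which did not reach 2 CPM in wild type, with 0.718, 3.28 and 1.32 CPM against 1.59, 0.731 and 0.380 CPM and overlapping genotypes. In the run of 3 that followed, Pp3c16_13139 kept 30.1% and Pp3c16_13150 had 12.2, 15.9 and 19.2 CPM in wild type and 10.6, 4.63 and 4.65 CPM in *Ppddm1*. Pp3c16_13160 in that run had 2.51, 2.57 and 2.47 CPM and 1.86, 0.244 and 0.285 CPM. For those last genes *Ppddm1* replicate 1 was well above the other *Ppddm1* libraries and close to wild type.

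Between the run of 3 and the run of 4 lay Pp3c16_13180, which was not lower, with 1280.0, 1275 and 1204 CPM in wild type and 1301, 1255 and 1353 CPM in *Ppddm1*. The run of 4 resumed directly after it. Pp3c16_13220 had 7.18, 13.3 and 12.5 CPM in wild type and 1.06, 1.95 and 4.08 CPM in *Ppddm1*, and Pp3c16_13230 had 7.54, 4.21 and 5.43 CPM and 0.265, 0.487 and 1.33 CPM. Pp3c16_13260 had 48.5, 69.5 and 61.0 CPM in wild type and 7.17, 6.82 and 24.7 CPM in *Ppddm1*. Pp3c16_13280 kept 24.7%, and the run as a whole had 131, 186 and 179 CPM in wild type and 19.6, 30.2 and 63.8 CPM in *Ppddm1*. In all 4 genes *Ppddm1* replicate 3 was the highest *Ppddm1* library, and the run kept 15.7% in batch 1 and 35.6% in batch 2. The genes outside the stretch, Pp3c16_13040 and Pp3c16_13330, stood at 118% and 109% of wild type with overlapping genotypes.

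**Figure D2:**
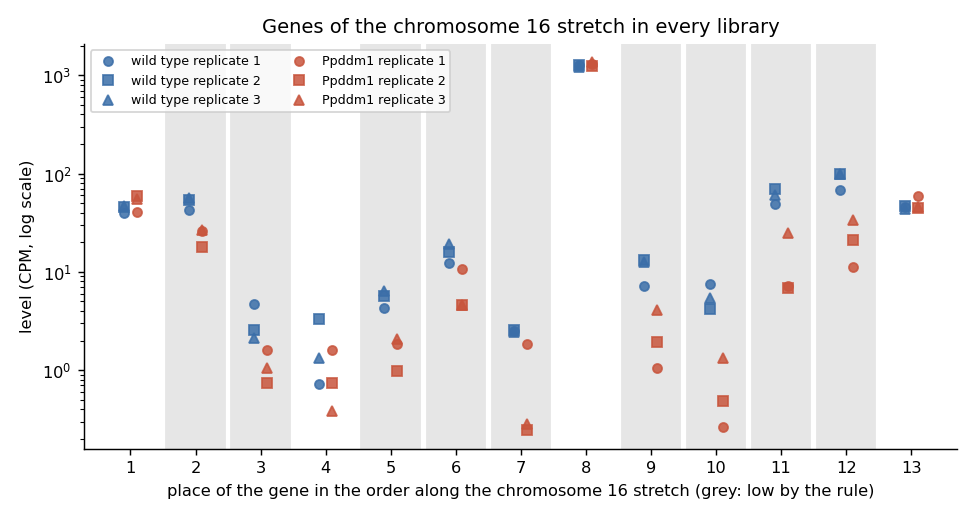
Level in CPM (log scale) of 13 genes of chromosome 16 that follow each other in the order, in the 3 wild type (blue) and 3 *Ppddm1* (red) libraries. Place 1 is Pp3c16_13040 and place 13 is Pp3c16_13330, and the 9 low genes are shaded grey. The genotypes overlap at places 1, 4, 8 and 13, and place 8 is Pp3c16_13180, at more than 1204 CPM in every library.

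Among the 40 runs of 2, the 5 with the highest summed CPM in wild type kept between 28.1% and 47.4% of their summed level. Pp3c25_10190 had 404, 689 and 716 CPM in wild type and 256, 206 and 144 CPM in *Ppddm1*, and Pp3c25_10220 had 144, 141 and 130.3 CPM and 47.2, 60.4 and 83.7 CPM. The libraries of *Ppddm1* were in opposite order in these neighbors, with replicate 3 lowest for the first and highest for the second. Pp3c2_30610 had 75.4, 140.0 and 139 CPM in wild type and 29.5, 31.7 and 19.0 CPM in *Ppddm1*, and its neighbor Pp3c2_30620 had 113, 178 and 159 CPM and 64.2, 44.6 and 37.2 CPM. Both were lowest in *Ppddm1* replicate 3, and both had their lowest wild type value in replicate 1.

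In the pair Pp3c1_41520 and Pp3c1_41530, replicate 1 was the highest library of each genotype. Pp3c1_41520 had 386, 209 and 222 CPM in wild type and 186, 108 and 101 CPM in *Ppddm1*, so that *Ppddm1* replicate 1 nearly reached the lower wild type libraries. Pp3c1_41530 had 67.2, 42.1 and 38.7 CPM and 29.7, 15.3 and 17.8 CPM, with the same order of libraries except that *Ppddm1* replicate 3 lay above replicate 2 and wild type replicate 2 above replicate 3. The other highly counted pairs each joined a highly counted gene to one with few counts. Pp3c21_16540 had 396, 378 and 358 CPM in wild type and 176, 144 and 218 CPM in *Ppddm1*, next to Pp3c21_16550 with 2.15, 4.45 and 5.26 CPM and 0.796, 0.244 and 1.90 CPM. Pp3c1_7740 had 280.1, 258 and 234 CPM in wild type and 139.9, 69.4 and 123 CPM in *Ppddm1*, next to Pp3c1_7730, which kept 16.7%.

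The 5 pairs with the lowest remaining share kept between 12.6% and 17.7% of their summed wild type level. Pp3c3_6500 had 42.7, 115 and 104 CPM in wild type and 15.9, 13.6 and 11.1 CPM in *Ppddm1*, and Pp3c3_6540 had 79.7, 91.7 and 95.7 CPM and 24.4, 15.3 and 12.9 CPM. Pp3c19_13690 had 39.1, 77.7 and 76.8 CPM in wild type and 8.49, 8.53 and 7.12 CPM in *Ppddm1*, next to Pp3c19_13700 with 17.1% remaining. In both of these pairs wild type replicate 1 was far below the other wild type libraries, except in Pp3c3_6540, where the wild type libraries were close. Pp3c4_2960 fell from 5.75, 10.3 and 10.9 CPM to 0.796, 1.22 and 1.52 CPM and its neighbor Pp3c4_2961 kept 24.5%. Pp3c10_20481 and Pp3c10_20490 kept 17.7% and 16.1%, and in both the *Ppddm1* level was highest in replicate 3. Pp3c20_1506 and Pp3c20_1510, with 4.31, 5.15 and 8.88 CPM in wild type and 0.796, 1.71 and 0.664 CPM in *Ppddm1* as a sum, rested on few reads.

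The other 30 pairs kept between 19.1% and 47.0% of their summed wild type level. Some were very even between libraries. The pair Pp3c8_19160 and Pp3c8_19170 summed to 224 ± 19.6 CPM for wild type against 95.1 ± 1.54 CPM for *Ppddm1* (mean ± SD, n = 3 each). Pp3c23_1080 and Pp3c23_1100 summed to 252, 249 and 242 CPM and 87.1, 69.2 and 102 CPM, and Pp3c17_3860 and Pp3c17_3870 to 234, 235 and 225 CPM and 91.0, 71.9 and 100.1 CPM. In these pairs the wild type libraries lay close together and every one was more than 2-fold above the highest *Ppddm1* library. Pp3c10_15110 and Pp3c10_15120 summed to 85.5, 93.8 and 88.8 CPM in wild type and 21.8, 19.2 and 31.4 CPM in *Ppddm1*, and nearly all of it came from the second gene. Pp3c17_21150 and Pp3c17_21228 had a summed level of 53.9, 51.3 and 48.5 CPM in wild type and 7.70, 8.53 and 13.7 CPM in *Ppddm1*. This pair and Pp3c9_7780 with Pp3c9_7820 were the lowest of the 30, at 19.5% and 19.1%.

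In other pairs 1 library of *Ppddm1* stood apart from the rest. The pair Pp3c16_23620 and Pp3c16_23630 summed to 112, 98.3 and 105 CPM in wild type and 19.1, 23.6 and 47.7 CPM in *Ppddm1*. Pp3c3_31490 and Pp3c3_31500 summed to 121, 143 and 136 CPM and 40.9, 41.9 and 80.6 CPM. Pp3c4_2660 and Pp3c4_2680 summed to 99.8, 138 and 132 CPM and 25.0, 15.3 and 50.3 CPM. In all of these *Ppddm1* replicate 3 was about 2-fold above the next highest *Ppddm1* library, and a larger share remained in batch 2: the first pair kept 20.3% in batch 1 and 45.3% in batch 2, the second 31.4% in batch 1 and 59.2% in batch 2, and the third 17.0% in batch 1 and 38.2% in batch 2. A larger share remained in batch 1 for Pp3c1_18680 and Pp3c1_18830 (47.4% in batch 1 and 20.8% in batch 2), with 24.8, 51.7 and 58.1 CPM in wild type and 20.2, 16.1 and 12.1 CPM in *Ppddm1*, where wild type replicate 1 was the lowest wild type library and *Ppddm1* replicate 1 the highest *Ppddm1* library.

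The rule has a threshold at 50% of wild type, and genes close to it differed little. Just inside were Pp3c21_13230 (48.7%), Pp3c21_20640 (48.5%) and Pp3c1_41520 (48.3%). Just outside, with a low gene next to them and no overlap of the genotypes, were Pp3c19_6370 (50.2%), Pp3c13_23930 (50.4%) and Pp3c14_8461 (50.4%). Pp3c14_8461 had 176, 109 and 105 CPM in wild type and 61.6, 53.8 and 81.1 CPM in *Ppddm1*, and Pp3c21_13230 had 10.4, 7.25 and 8.22 CPM and 5.04, 4.14 and 3.42 CPM.

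Genes outside the runs had median ratios near that of all genes. At the place directly next to a run, 89 genes reached 2 CPM in wild type and their median log2 ratio of *Ppddm1* to wild type was 0.04, against 0.05 over all such genes (quartiles -0.17 and 0.21). A low gene cannot stand at that place, since it would belong to the run. From place 2 to place 10 the medians ranged from -0.06 to 0.10. Of the 789 genes at places 2 to 10, 48 (6.08%) were low, compared with 3.08% of all genes at this wild type level. Those low genes include members of other runs, and some are counted from more than 1 run. The pair, the run of 3 and the run of 4 in the chromosome 16 stretch lie within 10 places of each other. Their members were therefore counted again from each other, as were those of the pairs that begin with Pp3c4_2660 and Pp3c4_2960. The share without members was not computed, so no higher frequency around the runs is read from these values. By single place, the low share ranged from 3.19% at place 10 to 12.5% at place 3. Of the 21 genes beside the runs of 3 or 4, 17 kept between 75% and 132% of their wild type level. The other 4 were Pp3c26_12710 (28.3%), Pp3c16_13081 (50.9%), Pp3c13_2440 (57.7%) and Pp3c11_25840 (64.9%), of which Pp3c26_12710 and Pp3c16_13081 had few counts and overlapping genotypes.

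**Figure D3:**
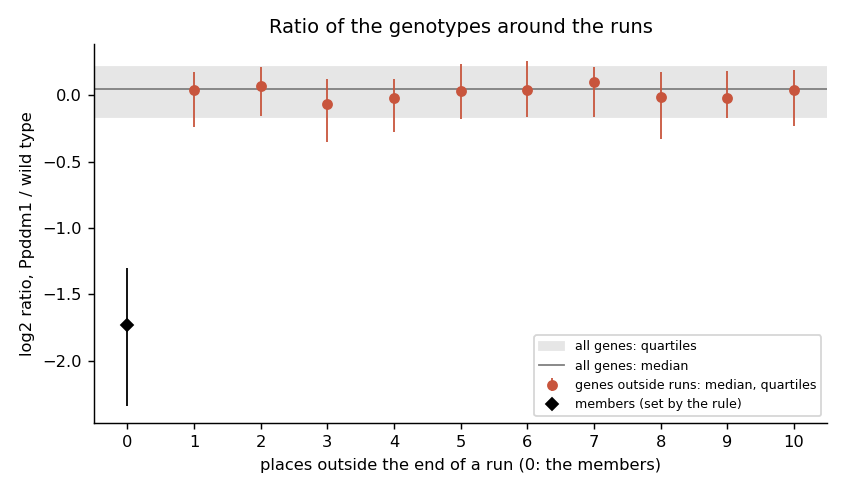
Median log2 ratio of *Ppddm1* to wild type (points, with lines from the first to the third quartile) for genes 1 to 10 places outside the end of a run, with the members at place 0 and all genes at 2 CPM or more as a grey line and band. The members lie at -1.73, where the rule put them, and the medians outside the runs lie between -0.06 and 0.10.

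Within a genotype, levels of neighboring members rose and fell together from library to library more than those of other neighbors. For each of the 65 adjacent member pairs, the log2 level in each library was taken relative to the mean of its genotype, and these deviations were correlated over the 6 libraries. Their median Pearson r was 0.52 (quartiles 0.20 and 0.79), against 0.08 for 13824 adjacent pairs in which neither gene was low and 0.15 for 6588 combinations of members from different runs. Values of r above 0.5 were found for 35 of the 65 pairs (53.8%), for 26.7% of the adjacent pairs with no low gene and for 29.2% of the members from different runs. The difference between genotypes, which chose the members, is taken out of this measure, although the condition of no overlap limits how far the libraries of a member can spread. All pairs share the same 6 libraries and their depths, so r is given with no test. The pairs were not matched for closeness: identifier numbers were at most 10 apart in 53.8% of member pairs and in 37.8% of the pairs with no low gene. Where both genes of a member pair had at least 20 CPM in wild type, which left 20 pairs, the median was 0.60. At the same wild type level it was 0.10 for adjacent pairs with no low gene and 0.22 for members from different runs. With Spearman correlations in place of Pearson, the medians were 0.43 for member pairs, 0.09 for pairs with no low gene and 0.14 for different runs. How far r rests on replicate 1, which lay apart from the other libraries in both genotypes, was not tested.

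The highest r was 0.99 for Pp3c21_20650 and Pp3c21_20660, whose 6 values are given above and follow the same order in both genes. Pp3c27_6880 and Pp3c27_6910 had an r of 0.98, Pp3c1_41520 and Pp3c1_41530 0.96, and Pp3c3_31490 and Pp3c3_31500 0.95. Reads with several matches were assigned at random and strand handling is not given in the sources used here, so neighbors that are near-identical copies or that overlap would share reads. Which of these pairs are such copies was not tested. A negative r was found for 11 of the 65 pairs, and the lowest were -0.75 for Pp3c25_10190 and Pp3c25_10220 and -0.65 for Pp3c27_6870 and Pp3c27_6880.

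**Figure D4:**
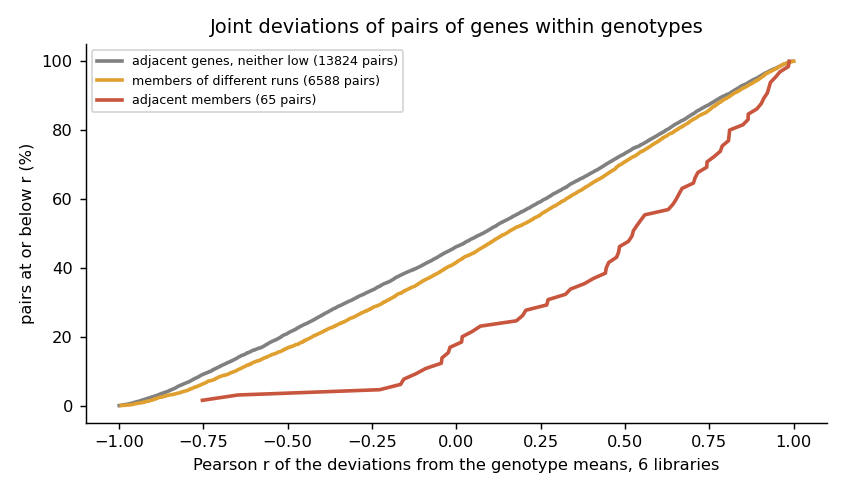
Share of gene pairs (y axis, percent) at or below a given Pearson r (x axis) of the deviations from the genotype means over 6 libraries, for 65 adjacent members (red), 13824 adjacent pairs with no low gene (grey) and 6588 combinations of members from different runs (yellow). The red curve lies to the right of the others, with its median at 0.52 against 0.08 and 0.15.

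The share of the wild type level that remained was one of the values that chose both genes of a pair, and is compared within pairs as a description only. The log2 ratios of the genes of a pair differed by a median of 0.46, against 0.63 between members of different runs, and across the 65 pairs they correlated with a Pearson r of 0.48 and a Spearman rho of 0.49, where genes inside runs of 3 or 4 enter more than 1 pair. The difference was under 0.5 in 38 pairs and over 1 in 10 pairs. It was widest between Pp3c6_28740, with 14.7, 27.8 and 25.8 CPM in wild type and 3.72, 4.87 and 10.9 CPM in *Ppddm1*, and Pp3c6_28760, with 3.95, 4.68 and 3.95 CPM and 0, 0.244 and 0.759 CPM.

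The rule itself required every member to be lower in both batches, so only the size of the difference is read within a batch. Members kept a median of 27.7% of their wild type level in batch 1 and 33.1% in batch 2, and 71 of the 116 kept more in batch 2. The fall to 50% or less held for 109 members in batch 1 and for 100 in batch 2, where the highest member stood at 69.0%. Since the rule set the mean over all libraries at 50% or less, these counts follow largely from the choice. Among the 16869 genes at 2 CPM or more in wild type in batch 1, 4.32% were at 50% or less in batch 2. *Ppddm1* replicate 3, the library with the largest count total, was the highest of the *Ppddm1* libraries for 55 members, replicate 1 for 38 and replicate 2 for 23. Over all genes at 2 CPM or more, replicate 3 was the highest for 26.8%. Wild type replicate 1, the library with the smallest count total, was the lowest wild type library for 64 members. The share over all genes was not computed for wild type, so that count is not read as a trait of the members. The part of the count total and of batch in these orders was not tested.

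To read the difference in libraries that had no part in the choice, the rule was applied to the 4 libraries of batch 1 alone and the genes found were then read in batch 2. Batch 1 gave 129 side-by-side genes in 58 runs, of which 105 are among the 116. The batch 1 libraries had a part in both choices, so nothing is read from that overlap. In batch 2, 125 of the 129 (96.9%) were below wild type and 95 (73.6%) were at 50% of wild type or less, with a median of 36.6% remaining. Of the 505 genes that were low in batch 1 and stood alone, 55.8% were at 50% or less in batch 2 and the median remaining was 45.8%. Among all 16869 genes at 2 CPM or more in wild type in batch 1, 4.32% were at 50% or less and 47.0% were below wild type. In batch 1, where they were chosen, the side-by-side genes had also kept less than the lone genes, 28.0% against 37.7%. With 1 library of each genotype in batch 2 there is no test. The exceptions, above wild type in batch 2, were Pp3c11_15250, Pp3c11_15254, Pp3c15_16010 and Pp3c24_20540, at 111%, 159%, 108% and 104%, and all had less than 5 CPM in wild type in batch 1.

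**Figure D5:**
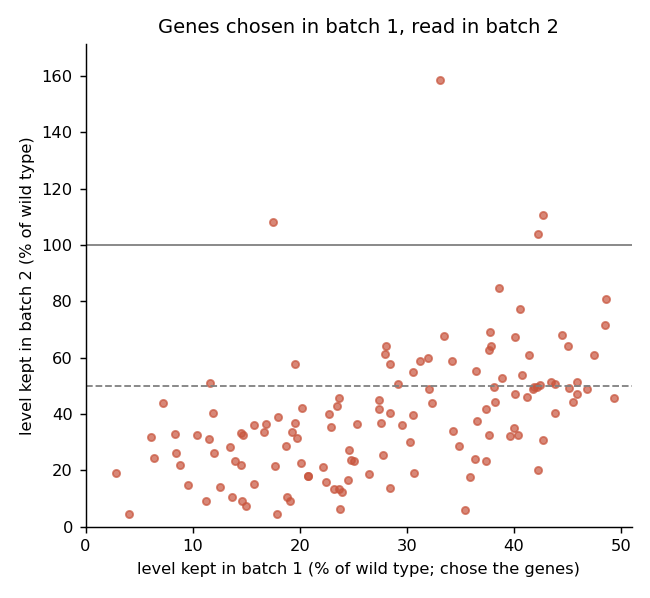
Level kept in batch 2 (y axis, percent of wild type) against the level kept in batch 1 (x axis) for the 129 genes chosen as side-by-side low genes in batch 1 alone, 1 point per gene. The dashed line marks 50% and the solid line 100% of wild type; 95 genes lie at or below the dashed line and 4 above the solid line.

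Side-by-side genes were spread over 22 of the 27 chromosomes. Chromosomes 7, 12, 14, 18 and 22 had none, although each had between 13 and 19 low genes. Chromosome 16 had 15 members in 6 runs, so that 15 of its 23 low genes stood side by side, and chromosome 21 had 13 members in 5 runs among 26 low genes. These were 1.92% and 2.21% of the ordered genes of their chromosomes, against 0.592% over all. Chromosome 1, with the most ordered genes, had 10 members in 5 runs, and the small chromosome 27 had 5 members in 2 runs. On scaffolds outside the chromosomes there were 42 genes with enough counts and none was low.

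Member pairs carried close identifiers. The numbers that order them along a chromosome differed by 10 or less in 35 of the 65 pairs (53.8%) and in 37.8% of the 13824 adjacent pairs with no low gene, and the widest step within a run was 160. In 48 pairs no gene row of the table lay between the partners, and in the other 17 pairs 1 to 3 rows with too few counts to enter the order did. When every gene row entered the order, 90 members in 42 runs remained and the longest run held 3 genes. Each run of 4 therefore had such a row inside it. Identifiers that do not end in 0 belonged to 12 of the 116 members (10.3%), to 16 of the 404 lone low genes (3.96%) and to 307 of the 16887 genes at 2 CPM or more (1.82%). Examples are Pp3c13_2427, Pp3c11_25868 and the pair Pp3c24_14849 and Pp3c24_14851, which summed to 151, 163 and 162 CPM in wild type and 70.6, 54.1 and 93.4 CPM in *Ppddm1*.

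With the rule turned around, so that *Ppddm1* took the place of wild type, 177 genes were high in *Ppddm1* and 13 of them (7.34%) stood side by side, beside 116 of the 520 low genes (22.3%). The lists differ in length and a longer list holds more neighbors by number alone, so these shares are not compared.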

How the data were processed

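Poly(A) RNA of 7-day protonema was read in 3 wild type and 3 *Ppddm1* libraries, grouped by the genotype in the sample labels. The submitters' processing notes list Trim Galore 0.6.0, cutadapt 1.15 and STAR 2.7.0f for trimming and alignment. The authors assigned reads with several matches at random, and deposited raw counts per gene and TE. Neither the program that counted the reads nor how it treated strand is given in the sources used here, so counts of overlapping or near-identical neighbors are uncertain.

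CPM was computed as the count divided by the library total, over 31967 genes and 241351 TEs. The 20647 features with at least 10 counts in all were fitted together in edgeR 4.0.16 (R 4.3.3) with TMM factors, the robust quasi-likelihood fit and genotype alone. Calls needed a Benjamini-Hochberg adjusted p under 0.05 and a 2-fold change. DESeq2 1.42.0 and limma-voom (limma 3.58.1) were alternatives, with other scalings, filters, folds, neighbor rules, batches and each library left out. The scripts were tested on simulated data. The study's methods name Limma. For the correlations, log2(CPM + 0.5) was used. No library was a duplicate of another: chi-square per degree of freedom between libraries of a genotype was at least 1.87. Replicate 1 lay apart in both genotypes. In wild type it gave 6.15 and 6.71 against replicates 2 and 3, which gave 1.87 against each other across the batches. In *Ppddm1* it gave 7.89 and 7.31 against replicates 2 and 3, which gave 3.68.

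The members and lists were chosen with earlier results of these data known. Named genes are PpDDM1, members of runs of 3 or more and the tested genes beside them, the 5 runs of 2 highest in wild type, the 5 with the lowest remaining share, and 3 genes on each side of the threshold. Other genes named were chosen after their values were seen. Gene lists by function could not be applied, since the identifiers were not annotated. Figures were drawn with matplotlib 3.10.9.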

Additional observations from a re-analysis of the deposited data

How the results depend on the processing

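How many genes stand side by side depends on the rule. The 116 members became 56 when a gene needed at least 10 counts in every library, 284 at 1.5-fold, 49 at 3-fold and 69 when identifiers had to be at most 10 apart. Under the other settings run, apart from leaving out 1 library, the number was between 80 and 143. It was 119 with edgeR calls, 108 with DESeq2 calls and 115 with limma-voom calls, of which 92, 88 and 88 were among the 116. Leaving out 1 library gave 114 to 153 members, of which 97 to 113 were among the 116. Allowing 1 gene between gave 143, with a longest run of 9 on chromosome 16. With no minimum count, 90 members remained and the longest run held 3 genes. The share kept by members ranged from 26.4% to 33.1% without 1 library. The 483 genes called lower by edgeR became 229 in batch 1 alone and ranged from 342 to 520 without 1 library. Of the members, 60 were called in batch 1 alone and 68 when every library needed at least 10 counts, a filter that leaves fewer genes to test. The PpDDM1 log2 fold change ranged from -4.45 to -4.03 without 1 library. Over all fits of PpDDM1, the adjusted p ranged from 2.3e-19 (DESeq2 Wald test, all libraries) to 0.00273 (edgeR quasi-likelihood F test, batch 1 alone). Genes chosen in batch 2 and read in batch 1 were at 50% of wild type or less in 62.1% of cases, and those chosen at 1.5-fold in batch 1 in 49.2% of cases in batch 2, against 73.6%. The median log2 ratio of genes outside the runs was 0.02, and -0.00684 with TMM factors and -0.0101 with DESeq2 size factors. Over all genes at 2 CPM or more in wild type, 2 different measures of the ratio were available. The median was 0.05 for the log2 ratio of mean CPM and 0.01 for the log2 fold change fitted by edgeR with TMM factors. Scaling and measure both differ between these values, so the part of TMM is not separated. The causes were not tested. Replicate numbers were not taken to pair the libraries in the main fit. Correlations of the deviations of same-numbered libraries were 0.34, 0.28 and -0.016. Those of differently numbered libraries lay between -0.37 and 0.27. With the batch as a term edgeR called 447 genes lower, 99 members among them, and the PpDDM1 log2 fold change was -4.39. With the replicate block, edgeR called 520 genes lower, 105 members among them, and the PpDDM1 log2 fold change was -4.40.

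Members at few counts are the least certain: 22 had under 5 CPM in wild type, and 8 counts over the *Ppddm1* libraries was the minimum. Gene order came from identifiers and not from positions, and genes with too few counts were skipped in it. *Ppddm1* is 1 line and batch 2 has 1 library of each genotype.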
